A study of Mus musculus with 6 samples.

Results

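The cytosolic sulfotransferases (Sult genes) described here were 9 genes taken by name, Sult1a1, Sult1b1, Sult1c2, Sult1d1, Sult1e1, Sult2a8, Sult2b1, Sult3a1 and Sult5a1, of 21 protein-coding Sult genes and 55385 genes in the count table. Poly(A) RNA was sequenced from livers of male mice (wild-type C57BL/6 in the study's methods) that had been put on a high-fat diet (HFD) at 6 to 8 weeks of age, kept on it for 10 weeks, operated, and fed HFD for another 12 weeks. The operation was either vertical sleeve gastrectomy (VSG), which removes most of the stomach along its greater curvature, or a sham operation. There were 3 libraries from sham-operated mice (sham replicates 1 to 3) and 3 from VSG-operated mice (VSG replicates 4 to 6), each named as 1 liver sample. All were HFD-fed males, and no lean or female liver is compared here. The p-values below set the difference between the groups against the spread of these 6 samples within their groups.

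Cytosolic sulfotransferases move a sulfonate group from the activated sulfate donor PAPS (phosphoadenosine phosphosulfate) to phenols, steroids, bile acids, catecholamines and drugs. The sulfated product is usually more soluble in water and is more readily exported from the liver cell, and sulfated hormones mostly no longer bind their receptors. In rodent liver several of these genes are known to differ between the sexes and to respond to nuclear receptors that sense drugs and bile acids.

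The members lie on 5 chromosomes, with 3 of them side by side. Sult1b1 (chr5:87513339-87538195), Sult1d1 (chr5:87554645-87569027) and Sult1e1 (chr5:87575969-87591594) lie on the minus strand within 78.3 kb of mm10. The nearest protein-coding genes outside the cluster, Ugt2a1 at 22468 bases and Csn1s1 at 74614 bases, had no read in any library. Sult1c2 lies at chr17:53829637-53846339, also on the minus strand. Sult1a1 (chr7:126672865-126676432), Sult2a8 (chr7:14410686-14446769) and Sult2b1 (chr7:45729983-45784669) lie on the minus strand of chromosome 7. Sult3a1 (chr10:33857721-33879532) is on the plus strand and Sult5a1 (chr8:123140192-123158315) on the minus strand. Over the coding bases, each of Sult1b1, Sult1d1 and Sult1e1 is between 60.1% and 62.9% identical to the others in global alignment.

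The promoter windows of Sult1c2, the member that passed the test, and of the 3 clustered genes are shown because their transcripts are compared below. Each window runs from 250 bases before to 50 bases after the RefSeq start (build GRCm38.p6), on the gene's own minus strand, 5′ to 3′, at chr17:53845909-53846208, chr5:87538146-87538445, chr5:87568957-87569256 and chr5:87591562-87591861. Capitals mark matches to 5 motifs searched on both strands. The STAT5-type element was spelled TTCNNNGAA. The half-site of nuclear receptors was spelled AGGTCA, and GTTAATNAT stood for a half-site of HNF1. The HNF4-type element was spelled CAAAGTCCA, and the core promoter element that TBP binds was spelled TATAAA. The RefSeq start of Sult1c2 is 381 bases from the 5′ end of the gene in GENCODE.
Sult1c2: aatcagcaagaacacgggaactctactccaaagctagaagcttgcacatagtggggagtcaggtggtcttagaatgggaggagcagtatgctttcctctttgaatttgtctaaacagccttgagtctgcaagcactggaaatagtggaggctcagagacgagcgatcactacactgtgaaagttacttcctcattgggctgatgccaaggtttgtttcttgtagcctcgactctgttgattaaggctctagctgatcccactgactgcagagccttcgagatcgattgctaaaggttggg
Sult1b1: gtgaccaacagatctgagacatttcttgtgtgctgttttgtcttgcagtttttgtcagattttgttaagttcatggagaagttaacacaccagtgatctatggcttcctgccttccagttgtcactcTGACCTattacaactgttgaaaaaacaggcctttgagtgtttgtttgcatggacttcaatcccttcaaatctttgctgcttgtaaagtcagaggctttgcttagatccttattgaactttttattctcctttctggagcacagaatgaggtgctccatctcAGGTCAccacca
Sult1d1: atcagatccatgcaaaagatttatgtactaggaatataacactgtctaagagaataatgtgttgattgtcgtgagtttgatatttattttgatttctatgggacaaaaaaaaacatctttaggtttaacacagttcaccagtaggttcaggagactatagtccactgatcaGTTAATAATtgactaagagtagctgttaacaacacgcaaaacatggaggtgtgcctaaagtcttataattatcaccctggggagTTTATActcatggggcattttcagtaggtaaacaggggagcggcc
Sult1e1: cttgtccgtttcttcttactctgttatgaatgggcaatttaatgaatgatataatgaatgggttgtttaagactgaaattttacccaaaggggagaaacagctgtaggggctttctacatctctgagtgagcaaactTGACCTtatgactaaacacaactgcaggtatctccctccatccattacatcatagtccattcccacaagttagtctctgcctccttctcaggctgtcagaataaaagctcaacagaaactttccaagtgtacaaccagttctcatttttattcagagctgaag

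The window of Sult1c2 held no match to any of the 5 motifs. That of Sult1b1 held AGGTCA on the opposite strand at -123 and on the gene's strand at 38, counted from the start site, and that of Sult1e1 held it on the opposite strand at -113. AGGTCA was found in 16.3% of all 32851 promoter windows of the same length. Sult1d1 carried GTTAATAAT at -79, a motif present in 0.801% of all windows, and TATAAA on the opposite strand at 5, present in 13.6%. Among the other members, Sult3a1 had a TTCNNNGAA match, present in 8.30% of windows, and Sult2a8 a TATAAA match on the opposite strand. CAAAGTCCA, in 0.475% of all windows, matched in 0 of the 9 members. Sult1b1, Sult2a8 and Sult2b1 each have 2 RefSeq starts, and only the start nearest the GENCODE 5′ end was searched. For Sult2b1 that start is 25057 bases from this end. A match describes these letters only.

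Sequencing depth was even, at 22804397 to 24191778 counts per library, and 3 counts corresponded to 0.111 to 0.143 counts per 1000000 (CPM, on TMM-scaled library sizes). In the edgeR quasi-likelihood test with Benjamini-Hochberg adjustment, 2118 of 14454 genes tested differed at an adjusted p under 0.05 (14.7%), 981 higher and 1137 lower after VSG. With library totals in place of TMM factors the split was 486 higher and 1512 lower, and the median log2 fold change of all genes was -0.11 instead of 0.03. The liver label fitted its hepatocyte markers, whose summed level was 66459 to 110588 CPM in sham livers and 48598 to 80432 CPM in VSG livers. None of 8 tested hepatocyte markers passed the edgeR test (3 at an unadjusted p under 0.05, and DESeq2 called 1 higher and 2 lower). Over all tested genes 4893 of 14454 had an unadjusted p under 0.05 in edgeR, and DESeq2 called 1516 higher and 1772 lower. Sham replicate 2 had the highest hepatocyte sum, and VSG replicate 4 the lowest. The 12 neutrophil markers were higher after VSG, but 9 of them had fewer than 10 counts in at least 1 sham library and passed the filter on low counts through the VSG libraries, so their count is no support. They had a summed level of 78.3 to 219 CPM in sham livers and 683 to 8512 CPM in VSG livers, highest in VSG replicate 4. Most of this sum was Lcn2 (75.3 to 204 CPM in sham, 527 to 6621 CPM in VSG livers), which liver cells also make, and the other 11 markers summed to 2.92 to 15.3 and 155 to 1891 CPM. In whole liver, fewer cells of a type and less RNA per cell cannot be told apart, and the part of cell composition in the results below was not tested.

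Of the 9 members, 7 passed the filter on low counts and were tested. A single member, Sult1c2, passed the threshold, and it was lower after VSG. Over all tested genes 14.7% passed, 7.87% lower and 6.79% higher, so 1 of 7 members (14.3%) is a share near the background and says nothing about the members as a group. The fitted log2 fold change was negative for 5 tested members and positive for 2, with a median of -0.81 against 0.03 over all tested genes. The CPM ranges of the groups did not overlap for 2 tested members, Sult1c2 and Sult1b1, while 39.7% of all tested genes had no overlap.

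**Figure D1:**
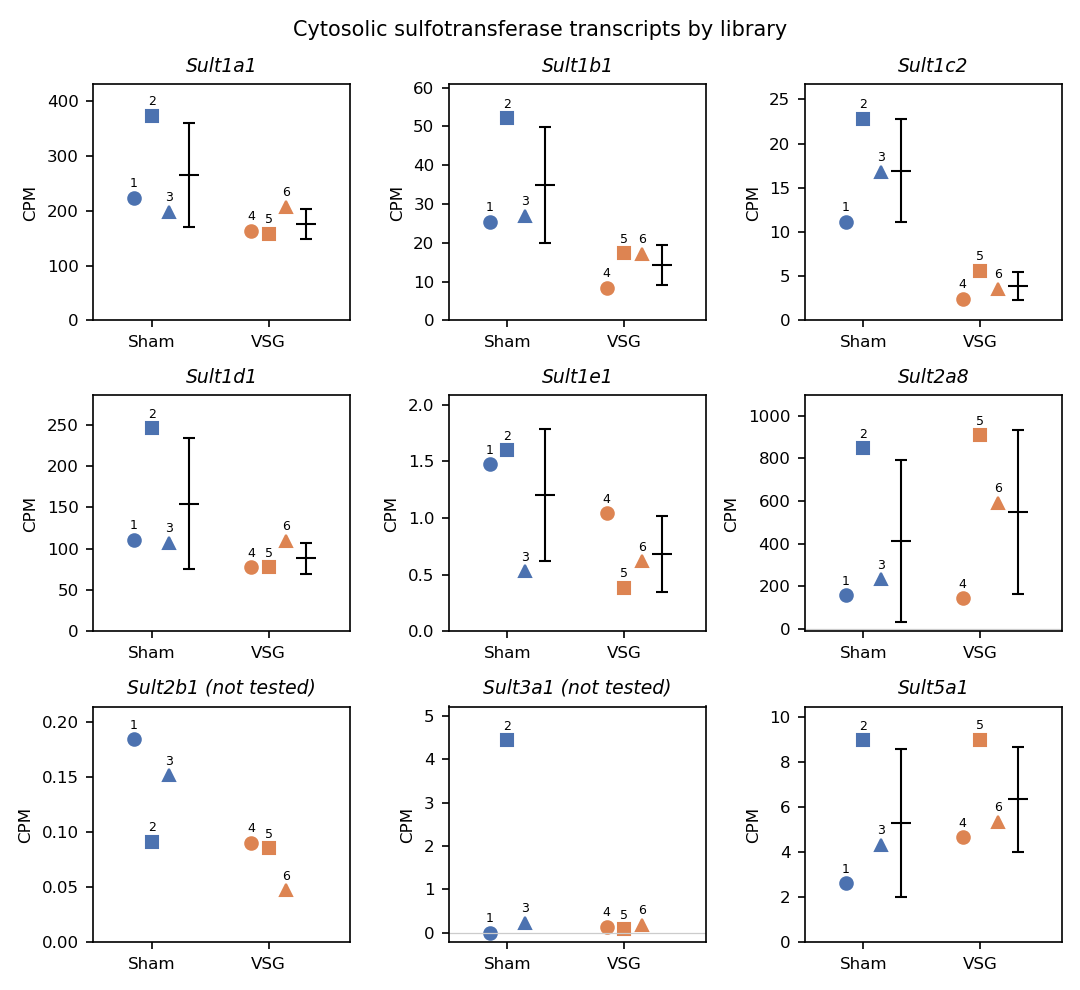
Each panel shows 1 member in counts per 1000000 (CPM, linear axis), with a point for every library labelled by its replicate number, sham in blue and VSG in orange, and black bars for the mean ± SD (n = 3) of the tested members. The groups are apart for Sult1c2 (11.2 to 22.8 against 2.44 to 5.64) and Sult1b1 (25.4 to 52.1 against 8.42 to 17.4), and sham replicate 2 is the highest sham library in all 7 tested members.

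Sult1c2 was 4.34-fold lower after VSG. Its level was 11.2, 22.8 and 16.8 CPM in sham replicates 1 to 3 and 2.44, 5.64 and 3.58 CPM in VSG replicates 4 to 6. The lowest sham library was 1.98 times the highest VSG library, so the groups did not overlap. Mean levels were 16.9 ± 5.82 CPM in sham livers and 3.89 ± 1.62 CPM in VSG livers (SD, n = 3), a log2 fold change of -2.12 (SE 0.374, 95% interval -3.00 to -1.23, edgeR adjusted p 0.0193). The raw counts behind these values were 302 to 499 in sham and 54 to 132 in VSG libraries. The call was kept in 11 of 13 alternative analyses, and it was lost in 2: leaving out sham replicate 3 gave an adjusted p of 0.0864 (log2 fold change -2.13), and leaving out VSG replicate 6 gave 0.0839 (-2.06). Without sham replicate 2 the log2 fold change was -1.85 (adjusted p 0.0497).

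Sult1c2 also took up a smaller part of the family after VSG. As a share of the summed FPKM of all 21 Sult genes within a library (FPKM, fragments per kilobase of exon, scaled by library as CPM), it held 2.32%, 1.91% and 3.37% in sham and 0.668%, 0.709% and 0.513% in VSG livers. These shares do not depend on the scaling between libraries. Little of its sequence is shared with other genes: 13 of its 1797 stretches of 50 bases (0.723%) also occur in another annotated transcript, that of Sult1c2-ps2.

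Sult1b1, an enzyme known for sulfating thyroid hormones and small phenols, did not pass the threshold. It stood at 25.4, 52.1 and 26.9 CPM in sham replicates 1 to 3 and at 8.42, 17.4 and 17.2 CPM in VSG replicates 4 to 6. Every sham library was above every VSG library, by 1.47 times for the closest pair. Its log2 fold change was -1.28 (SE 0.377, 95% interval -2.18 to -0.38, edgeR adjusted p 0.0657), with means of 34.8 ± 14.97 CPM and 14.3 ± 5.12 CPM (SD, n = 3). Adjusted p-values ranged from 0.00812 to 0.145 over the alternatives, and 3 of 13 passed: DESeq2 (0.00812), every gene with at least 1 count (0.0258) and library totals (0.0294). Its share of the family FPKM was 3.52%, 2.90% and 3.58% in sham and 1.53%, 1.45% and 1.64% in VSG livers, again without overlap.

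Sult1d1, the neighbour of Sult1b1 and known for sulfating catecholamines, had overlapping groups. It was at 111, 246 and 107 CPM in sham livers and at 77.8, 77.7 and 110 CPM in VSG livers, where VSG replicate 6 lay above sham replicate 3. A log2 fold change of -0.81 was fitted (SE 0.350, 95% interval -1.64 to 0.03, edgeR adjusted p 0.158). Sham replicate 2 carried much of this value, since without it the log2 fold change was -0.31 (adjusted p 0.327).

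Sult1e1, the estrogen sulfotransferase at the far end of the cluster, was measured at a low level. Its counts were 40, 35 and 14 in sham and 23, 9 and 13 in VSG livers, or 1.48, 1.60 and 0.532 CPM against 1.04, 0.385 and 0.620 CPM. The groups overlapped, with sham replicate 3 below VSG replicates 4 and 6, and the log2 fold change was -0.81 (SE 0.533, 95% interval -2.08 to 0.46, edgeR adjusted p 0.318).

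Sult1a1, the main phenol sulfotransferase of liver, was among the most abundant members. It measured 223, 373 and 198 CPM in sham livers and 163, 158 and 208 CPM in VSG livers. Only VSG replicate 6 reached into the sham range, above sham replicate 3. Sult1a1 had a log2 fold change of -0.59 (SE 0.260, 95% interval -1.21 to 0.03, edgeR adjusted p 0.164), and this was -0.26 without sham replicate 2 (adjusted p 0.357). Its exons overlap those of Sgf29 on the opposite strand by 61 bases, and 6.58% of its stretches of 50 bases also occur in Gm6939, so a few reads may be shared.

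**Figure D2:**
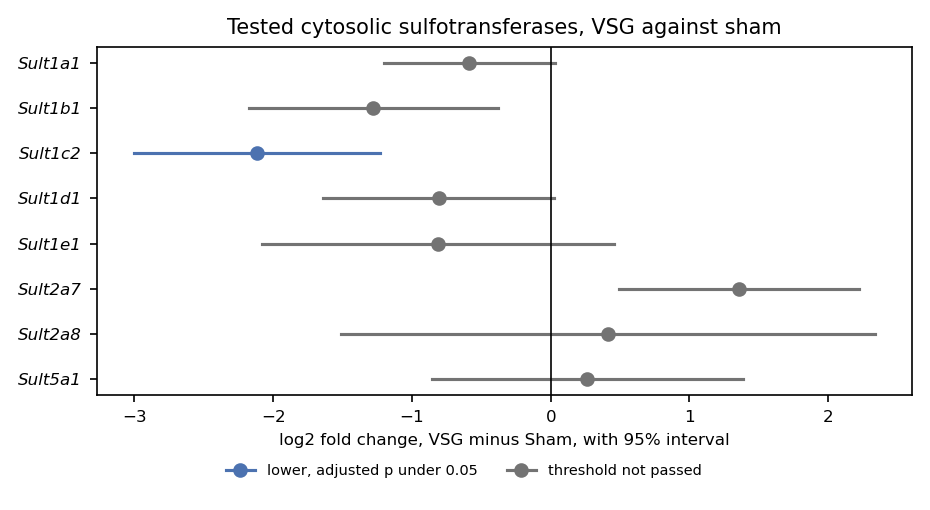
The log2 fold change (VSG minus sham, points) with its 95% interval (lines) from the edgeR fit is drawn for the 8 tested cytosolic sulfotransferases, in blue where the gene passed the threshold as lower and in grey where it did not. The intervals of Sult1c2 (-3.00 to -1.23) and Sult1b1 (-2.18 to -0.38) lie below 0, that of Sult2a7 (0.50 to 2.22) lies above 0, and that of Sult2a8 (-1.51 to 2.34) is the widest.

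Sult2a8, a sulfotransferase of bile acids, varied more within each group than between them. It was at 158, 848 and 233 CPM in sham replicates 1 to 3 and at 145, 909 and 593 CPM in VSG replicates 4 to 6. The highest library was 5.38 times the lowest in sham and 6.27 times the lowest in VSG livers, against ratios of 2.04 and 2.31 for Sult1c2. Each group held at least 1 low and 1 high library, and the means were 413 ± 379 and 549 ± 384 CPM (SD, n = 3). Its log2 fold change was 0.41 (SE 0.809, 95% interval -1.51 to 2.34, edgeR adjusted p 0.743). Leaving out sham replicate 2 moved it to 1.49 and leaving out VSG replicate 5 turned it to -0.17, and adjusted p-values over the 13 alternatives were 0.246 to 0.992. With this spread, 3 libraries per group could not set a direction for this gene.

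Sult5a1 had the same order of libraries within the VSG group and within the sham group as Sult2a8, at a far lower level. Its values were 2.62, 8.95 and 4.33 CPM in sham livers and 4.66, 8.98 and 5.34 CPM in VSG livers, with overlapping groups. The log2 fold change was 0.26 (SE 0.471, 95% interval -0.86 to 1.38, edgeR adjusted p 0.718), and it turned to -0.071 without sham replicate 1 and to -0.094 with VSG replicate 5 left out.

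The last pair of members did not pass the filter on low counts. Sult3a1, which sulfates amines, had 0, 97 and 6 counts in sham replicates 1 to 3 and 3, 2 and 4 counts in VSG replicates 4 to 6. Sham replicate 2 stood far above the others, at 4.43 CPM, and the other 5 libraries held at most 6 counts each. The coding bases of Sult3a1 are 90.9% identical to those of Sult3a2, and 6.15% of its stretches of 50 bases also occur there, so reads could be split between them. Sult2b1, which sulfates cholesterol and other hydroxysteroids, had 5, 2 and 4 counts in sham and 2, 2 and 1 in VSG livers, at or near the floor in every library.

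Libraries of the same group were not alike. Sham replicate 2 had the highest level among the sham libraries in 7 of 7 tested members, and it was also the library with the 97 Sult3a1 counts. VSG replicate 4 was the lowest VSG library in 4 of 7. These are the same libraries that stood at the top and bottom of the hepatocyte marker sum, and the part of hepatocyte RNA content in the members' values was not tested. The share of all tested genes with these orders is not given here, so the counts of members have no background. Members are also not independent of each other. Their Pearson r of log2 CPM over the 6 libraries ran from -0.311 (Sult1e1 with Sult2a8) to 0.994 (Sult1a1 with Sult1d1).

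Levels of different members are compared per length of exon. In sham livers the mean level was 176 ± 62.6 FPKM for Sult1a1, 126 ± 115 FPKM for Sult2a8 and 62.9 ± 32.1 FPKM for Sult1d1 (SD, n = 3). Sult1b1 followed at 12.5 ± 5.38 FPKM and Sult1c2 at 9.17 ± 3.15 FPKM. Sult3a1 (1.34 ± 2.16), Sult5a1 (1.20 ± 0.741), Sult1e1 (0.968 ± 0.470) and Sult2b1 (0.0361 ± 0.0120) were lowest in FPKM. The ranges of Sult1a1 and Sult2a8, of Sult2a8 and Sult1d1, of Sult1b1 and Sult1c2, and of the neighbours among Sult3a1, Sult5a1 and Sult1e1 overlapped in sham livers. The lowest Sult1d1 library (43.6 FPKM) lay above the highest Sult1b1 library (18.7 FPKM), and the lowest Sult1c2 library (6.04 FPKM) above the highest Sult5a1 library (2.03 FPKM).

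In VSG livers Sult2a8 came first on average, at 167 ± 117 FPKM, and Sult1a1 second, at 117 ± 18.1 FPKM, with overlapping ranges. Sult1d1 was at 36.0 ± 7.52 FPKM, below every Sult1a1 library and overlapping Sult2a8 at 44.1 FPKM in VSG replicate 4. Sult1b1 was at 5.15 ± 1.84 FPKM and Sult1c2 at 2.11 ± 0.879 FPKM. Their ranges overlapped, with Sult1b1 at 3.03 FPKM in VSG replicate 4 and Sult1c2 at 3.06 FPKM in VSG replicate 5. Sult1c2 then overlapped Sult5a1, which was at 1.43 ± 0.525 FPKM, and Sult1e1 followed at 0.549 ± 0.268 FPKM.

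**Figure D3:**
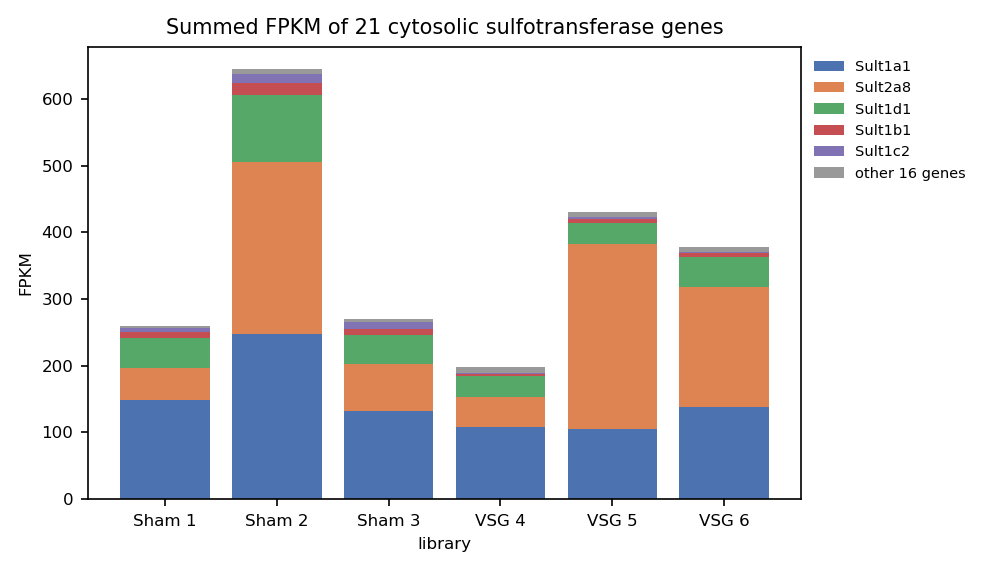
Stacked bars give the FPKM of 5 sulfotransferases and of the other 16 genes of the family in each library, and the bar height is the sum over all 21. The sum ranges from 260 to 646 FPKM in sham and from 198 to 431 FPKM in VSG livers, and Sult1a1 and Sult2a8 take up most of every bar.

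Summed over the 21 genes, sulfotransferase transcripts amounted to 260, 646 and 270 FPKM in sham and 198, 431 and 378 FPKM in VSG livers. The groups overlapped, with means of 392 ± 220 and 336 ± 122 FPKM (SD, n = 3). Sult1a1 made up 48.0 ± 9.33% of the sum in sham and 38.5 ± 15.3% in VSG livers, and Sult2a8 made up 28.2 ± 10.9% and 44.8 ± 21.1%. Both shares overlapped between the groups.

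Among the 12 cytosolic sulfotransferase genes outside the 9, only Sult2a7 passed the filter on low counts. Its counts were 65, 42 and 128 in sham and 212, 175 and 138 in VSG livers, or 2.40, 1.92 and 4.86 CPM against 9.59, 7.48 and 6.58 CPM. The groups did not overlap, and every VSG library was higher. The log2 fold change of Sult2a7 was 1.36 (SE 0.363), and its edgeR adjusted p of 0.0510 missed the threshold. It passed in 5 of 13 alternatives, with adjusted p-values from 0.00510 to 0.124. The other 11 genes were not tested, and 4 of these had no count in any library.

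The transcripts most like the members in pattern were sought over the 6 libraries, among 9958 genes with a mean of at least 5 CPM. For Sult1c2 these were Aifm2 (Pearson r 0.999 of log2 CPM), Parp16 (0.998) and Ndufa8 (0.998), each with the same order of libraries (Spearman rho 1). For Sult2a8, whose mean FPKM over all 6 libraries was the highest by a narrow margin over Sult1a1, they were Eif4b (r 0.992), Ormdl2 (0.991) and Elovl3 (0.989), the last a gene of fatty acid elongation known to be higher in male mouse liver. These are the highest of many r values and describe these 6 libraries only.

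Of 19 tested genes of sulfate and PAPS supply, 4 were lower, 2 were higher and 13 did not pass, against 7.87% lower and 6.79% higher over all tested genes, with a median log2 fold change of -0.23 against 0.03 over all tested genes. Papss2, a synthase of PAPS, was at 179, 258 and 183 CPM in sham livers and at 88.0, 130 and 110 CPM in VSG livers. The groups did not overlap, and the log2 fold change was -0.92 (SE 0.206, edgeR adjusted p 0.0331). Papss1, the other synthase, was at 10.9 to 15.8 CPM over the 6 libraries with a log2 fold change of -0.13 (SE 0.162, edgeR adjusted p 0.597).

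**Figure D4:**
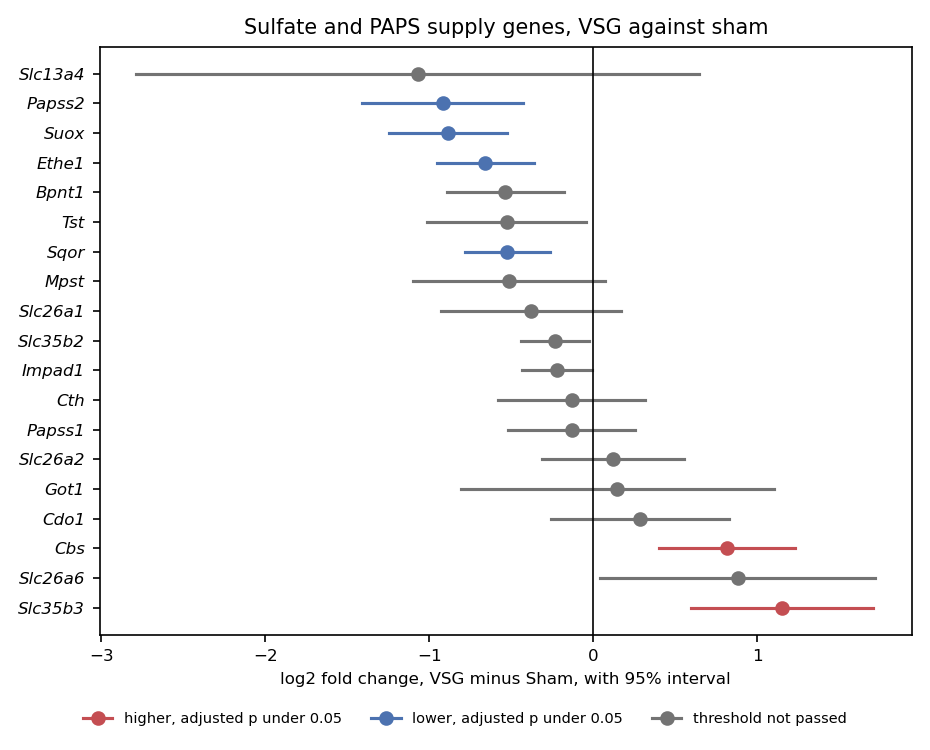
The log2 fold change (VSG minus sham, points) with its 95% interval (lines) from the edgeR fit is drawn for the 19 tested genes of sulfate and PAPS supply, in blue where lower, in red where higher and in grey where the threshold was not passed. Papss2, Suox, Ethe1 and Sqor are in blue and Slc35b3 and Cbs in red.

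Suox, sulfite oxidase, which makes sulfate from sulfite, was lower at 131, 165 and 140 CPM in sham livers and 68.3, 91.6 and 75.9 CPM after VSG (log2 fold change -0.89, SE 0.151, edgeR adjusted p 0.0176). Ethe1 (log2 fold change -0.66) and Sqor (-0.52), mitochondrial enzymes of sulfide oxidation, were lower too. Bpnt1, which degrades the PAP left after sulfonation, had a log2 fold change of -0.53 (SE 0.151, edgeR adjusted p 0.0591). Slc35b3, a carrier of PAPS into the Golgi, was at 12.3 to 14.7 CPM in sham livers and 22.4 to 42.0 CPM after VSG (log2 fold change 1.15, SE 0.234, edgeR adjusted p 0.0263). Cbs, which starts the conversion of homocysteine to cysteine, was also higher (log2 fold change 0.82). With sham replicate 3 left out, 0 of these genes passed the edgeR threshold (8 at an unadjusted p under 0.05). With VSG replicate 6 left out 0 passed as well (9). Over all genes 159 of 14839 and 210 of 14781 passed in these fits, and 3437 and 3847 had an unadjusted p under 0.05. Leaving out sham replicate 2 left 2 calls, VSG replicate 4 left 2 and sham replicate 1 left 3. Over all genes these fits called 797 of 14913, 1076 of 14707 and 1214 of 14814. With DESeq2, 7 passed, beside 3288 of 14454 over all genes.

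Enzymes that remove sulfate or add it in the Golgi were examined beside the cytosolic ones, and the counts below stand against 7.87% lower and 6.79% higher over all tested genes. Of 12 tested sulfatase genes, 2 were lower and 0 higher: Sulf2, an extracellular heparan endosulfatase, was at 34.1 to 54.7 CPM in sham livers and 12.4 to 18.6 CPM after VSG (log2 fold change -1.65, SE 0.232, edgeR adjusted p 0.0114), and Sumf1, which activates sulfatases, had a log2 fold change of -0.36. Of 18 tested membrane sulfotransferases, 3 were higher, namely Ndst2 (0.52), Tpst2 (0.49) and Hs3st3b1 (0.47, all log2 fold changes), and 2 were lower. The lower genes were Gal3st1, which makes sulfatide, at 3.15 to 5.65 CPM in sham livers and 0.620 to 1.62 CPM after VSG (log2 fold change -2.25), and Chst15 (-0.58). With library totals the 3 higher calls were lost (adjusted p 0.129 to 0.159). When sham replicate 3 was left out, 0 genes of either list passed (2 sulfatase genes and 6 membrane sulfotransferases at an unadjusted p under 0.05). When VSG replicate 6 was left out, 0 passed as well (3 and 6). Sulf2 had edgeR adjusted p-values of 0.0575 and 0.0613 in these fits. Over all genes 159 of 14839 and 210 of 14781 passed there, and 3437 and 3847 had an unadjusted p under 0.05. Leaving out sham replicate 1 or 2 or VSG replicate 4 left 1 sulfatase gene and 1 to 2 membrane sulfotransferases past the threshold. Over all genes 1214 of 14814, 797 of 14913 and 1076 of 14707 passed in that order.

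Of 22 tested regulators known to act on sulfotransferase genes or on liver sex differences, 1 was higher and 2 were lower, a share near the 14.7% of all tested genes that passed. Esr1, the estrogen receptor alpha, was at 38.1, 39.5 and 27.9 CPM in sham livers and 71.8, 71.3 and 63.6 CPM after VSG (log2 fold change 0.97, SE 0.148, edgeR adjusted p 0.0141). Nr1i2, the drug-sensing receptor PXR, was lower at 72.9, 116 and 105 CPM in sham against 47.3, 61.5 and 50.9 CPM after VSG (log2 fold change -0.88, SE 0.195, edgeR adjusted p 0.0322). Neither gene's groups overlapped.

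Nr1i3, the constitutive androstane receptor CAR, spread widely and did not pass. It was at 181, 686 and 389 CPM in sham livers and 44.3, 256 and 238 CPM in VSG livers, with overlapping groups (log2 fold change -1.22, SE 0.711, edgeR adjusted p 0.265). Hnf4a (0.37) and Stat5b (-0.09) had log2 fold changes that did not pass, with edgeR adjusted p-values of 0.194 and 0.508. The call of Esr1 was lost without VSG replicate 6 (adjusted p 0.0569). That of Nr1i2 was lost when sham replicate 2 or 3 or VSG replicate 4 or 6 was left out, with adjusted p-values of 0.0776 to 0.125.

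Genes known to differ between male and female mouse liver were examined because several sulfotransferases share this trait. Over all tested genes 7.87% were lower and 6.79% higher. Of 9 tested female-biased genes 6 were lower in edgeR and 6 with DESeq2, but 3 of the 9 had at most 3 counts in every VSG library. Those 3 passed the filter on low counts through the sham libraries alone, so the count of lower genes is no support. Of 16 tested male-biased genes, 3 were higher in edgeR (5 with DESeq2) and 13 did not pass in edgeR, 5 of the 16 having a negative fold change. DESeq2 called 1772 of 14454 genes lower and 1516 higher. The summed level of the female-biased list was 263 to 695 CPM in sham livers and 92.0 to 238 CPM in VSG livers. It was highest in sham replicate 2, the library with most of the Sult3a1 counts. That of the male-biased list overlapped, at 1535 to 1620 CPM in sham livers against 986 to 3180 CPM after VSG. Any link between these genes and the members was not tested.

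Markers of other cell types gave the following counts, against 7.87% lower and 6.79% higher over all tested genes in edgeR. A count of 1 marker in a list of 7 or 8 is near that background. DESeq2 called 1772 of 14454 genes lower and 1516 higher, and 4893 of 14454 had an unadjusted p under 0.05 in edgeR. Of 8 tested macrophage markers 4 were higher (5 with DESeq2), with a summed level of 345 to 730 CPM in sham livers and 742 to 2165 CPM in VSG livers. Of 8 stellate cell markers 1 was lower in edgeR and 6 with DESeq2 (7 at an unadjusted p under 0.05 in edgeR), all 8 had a negative log2 fold change with a median of -1.11, and the summed level was 647 to 1024 against 318 to 628 CPM. Of 7 bile duct and gallbladder markers 1 was higher (74.5 to 280 against 99.5 to 223 CPM), and of 4 tested pancreas and gut markers 2 were lower (135 to 168 against 37.7 to 61.2 CPM). Of 7 endothelial markers 0 passed in edgeR (1 at an unadjusted p under 0.05, 0 with DESeq2), at 326 to 387 against 330 to 418 CPM. The part of these cells in the members' values was not tested.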

How the data were processed

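RNA was extracted from about 40 mg of liver per sample, and strand-specific poly(A) libraries were made. Per the labels and the study's methods, the authors checked reads with FastQC 0.10.1, aligned them to mm10 with STAR 2.6.0 and counted them per gene with featureCounts (2.0.3 in the labels). Which annotation release and strand setting they counted with, and how reads with several matches were handled, is not given in the sources used here. The deposited values are raw counts per gene with the exon length, without normalization.

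Of 55385 gene IDs, 55144 matched GENCODE M21 (54487 with the version) and took their symbols from it. Genes with at least 10 counts in enough libraries and 15 in total (edgeR's filterByExpr) were tested with edgeR 4.0.16 (R 4.3.3): TMM factors, quasi-likelihood test of VSG against sham, Benjamini-Hochberg adjustment over all 14454 genes, threshold 0.05. CPM and FPKM used TMM-scaled library sizes and the deposited exon lengths. The fit was tested on simulated counts with known fold changes. DESeq2 1.42.0 and limma 3.58.1 gave alternatives, as did other scalings, other filters and leaving out each library. Within a group, every pair of libraries differed by more than counting noise (chi-square per degree of freedom 25.2 to 193). The floor of 3 counts covers counting error only.

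Promoter windows are RefSeq's. Coding bases were aligned with Biopython 1.88. Named were all members, tested family genes, up to 6 genes past the threshold per list, 9 fixed genes of supply and regulation, and 3 most similar genes for each of 2 members; of the fixed genes, Sts was not analysed here, and 1 gene past the threshold is not reported here. The members and lists were chosen with earlier results of these data known.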

Additional observations from a re-analysis of the deposited data

How the results depend on the processing

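Of the 13 alternatives, DESeq2 gave 3288 genes past the threshold in place of 2118. Leaving out 1 library gave 159 to 2732: 1214, 797 and 159 for sham replicates 1, 2 and 3, and 1076, 2732 and 210 for VSG replicates 4, 5 and 6. With library totals 2 of 7 tested sulfotransferase members passed the threshold, beside 1998 of 14454 over all genes. With all genes of at least 1 count 2 of 9 passed, beside 2306 of 27530. With DESeq2 it was 2 of 7, beside 3288 of 14454. Each time the members were Sult1c2 and Sult1b1. When a library was left out, 0 to 1 members passed. Without sham replicate 3, 0 of 7 passed (5 at an unadjusted p under 0.05 in edgeR). Over all genes 159 of 14839 then passed and 3437 had such a p. Without VSG replicate 6, 0 of 7 passed (2), beside 210 of 14781 over all genes (3847). Signs turned only for members that never passed: the log2 fold change of Sult2a8 ran from -0.17 (VSG replicate 5 left out) to 1.49 (sham replicate 2 left out), and that of Sult5a1 from -0.094 (VSG replicate 5 left out), with -0.071 when sham replicate 1 was left out, to 0.86 (sham replicate 2 left out). Outside the members, Chst15 lost its call with limma-voom (adjusted p 0.0526), with limma on log2(FPKM + 1) (0.0615) and with at least 10 counts in every library (0.0510). Cbs lost it with library totals (0.0646), and Sumf1 (0.0640) and Hs3st3b1 (0.0755) with all genes of at least 1 count. Bpnt1 passed with library totals (0.0136), all genes of at least 1 count (0.0474) and DESeq2 (0.0216). The cause of these changes was not tested. No paired analysis was possible because the replicate numbers of the groups, 1 to 3 and 4 to 6, are not shared. Counts were lowest for Sult1e1, Sult2b1 and Sult3a1, at 134, 16 and 112 over the 6 libraries, 97 of the last in sham replicate 2; whether depth or the spread between libraries limits them was not tested.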
